A study of Homo sapiens with 94 samples.

Results

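NRF2 (encoded by NFE2L2) is the transcription factor through which cells answer electrophiles. KEAP1 carries reactive cysteines and marks NRF2 for degradation, and when an electrophile modifies those cysteines NRF2 accumulates, pairs with a small MAF protein and binds antioxidant response elements in its target genes. The targets make glutathione and thioredoxin, detoxify quinones and carbonyls and degrade heme, and BACH1 competes for the same elements as a repressor. K-975 inhibits TEAD transcription factors by binding covalently in their palmitoylation pocket through an acrylamide, an electrophilic group, so the question was whether it raised this program at any dose and time. The genes followed were 10 NRF2 targets, NQO1, HMOX1, GCLM, GCLC, SRXN1, TXNRD1, SLC7A11, OSGIN1, AKR1C1 and AKR1B10, taken by their gene symbol from the expression table, in which all 10 of them were found among 20239 genes.

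RNA-seq had been performed on 94 subcutaneous tumors of NCI-H226, an established human line of malignant pleural mesothelioma with a deletion of NF2, a Hippo pathway gene, which the control tumors carry too. Female SCID mice received a single oral dose of K-975 (30, 100 or 200 mg/kg), its vehicle of EtOH, Solutol and injectable glucose at pH3, or no treatment. The 3 studies differed in when tumors were taken, 1 h, 3-6 h or 24 h after dosing, so that time and study cannot be told apart. At 1 h and 24 h each group was 1 cage group of 5 tumors (4 for vehicle at 24 h), so that cage and treatment cannot be told apart. At 3-6 h vehicle and every dose had 2 cage groups of 5 tumors, without a label for which was taken at 3 h and which at 6 h, and each study had 5 untreated tumors. The volume was 20 mL/kg for vehicle and the top dose and 10 mL/kg for the lower doses. Compound and volume therefore cannot be told apart where a lower dose is compared with vehicle, and trends with dose hold both. SCID mice lack T and B cells and keep macrophages and other innate cells, and all tumors came from 1 cell line.

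Values were FPKM, which correct fragments for gene length and for library size and hold no read counts, so the absolute depth is unknown. A relative depth estimated from rarely detected genes ran from 0.4454 to 1.8411 of the median library in the 91 libraries used. In these libraries 11344 to 11665 genes reached an FPKM of 1. The other 3 libraries had fewer such genes and were left out. They were replicate 1 of the top dose at 1 h (8531 genes), replicate 5 of the middle dose at 24 h (7196) and replicate 1 of the lowest dose at 24 h (702). Of 7 mesothelial markers, MSLN, CALB2, KRT18 and KRT19 were among the high genes, with medians of 254.8 to 701.6 FPKM. PDPN and WT1 had medians of 57.42 and 29.13 FPKM, and UPK3B had one of 1.503 with 3 tumors at 0. Of 7 macrophage markers, C1QA and AIF1 were at 0 in all 91 libraries, CD163 in 90, CSF1R and PTPRC had medians of 0.767 and 0.168 FPKM, and CD68 alone, with a median of 138.6 FPKM, made up most of the median sum of 139.7. Macrophages of the host are mouse cells, the values are of human genes on GRCh38, and the treatment of mouse reads is not given. These markers therefore do not show how many host macrophages a tumor held.

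On GRCh38 the members lie at chr16:69706996-69726951 (NQO1), chr22:35380361-35394214 (HMOX1), chr1:93885205-93909456 (GCLM), chr6:53497341-53545129 (GCLC) and chr20:646615-653370 (SRXN1). The others lie at chr12:104215779-104350283 (TXNRD1), chr4:138164097-138242349 (SLC7A11), chr16:83949067-83966332 (OSGIN1), chr10:4963253-4983283 (AKR1C1) and chr7:134527592-134541408 (AKR1B10).

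The members were expressed at very different levels, in the order shown in the plot of levels. TXNRD1, cytosolic thioredoxin reductase, had a median of 312.3 FPKM over the 91 tumors and a range of 242.8 to 490.4. NQO1, the quinone reductase that is the usual reporter of NRF2 activity, followed with a median of 60.97 and a range of 40.85 to 86.5. Neither range overlapped that of any other member. HMOX1, which degrades heme, had a median of 7.133 (1.03 to 14.64). GCLC and GCLM, the catalytic and modifier subunits of glutamate-cysteine ligase, the first step of glutathione synthesis, had medians of 5.945 and 4.312. OSGIN1, an oxidative stress induced growth inhibitor, had 3.711. The ranges of these members overlapped widely, so their order is not firm. SRXN1, sulfiredoxin, which repairs oxidized peroxiredoxins, had a median of 1.349 (0.3934 to 2.933), and SLC7A11, the cystine importer subunit xCT, of 0.8927 (0.2336 to 2.439). Target enrichment with probes preceded sequencing, so levels of different genes also carry how well each was captured.

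**Figure D1:**
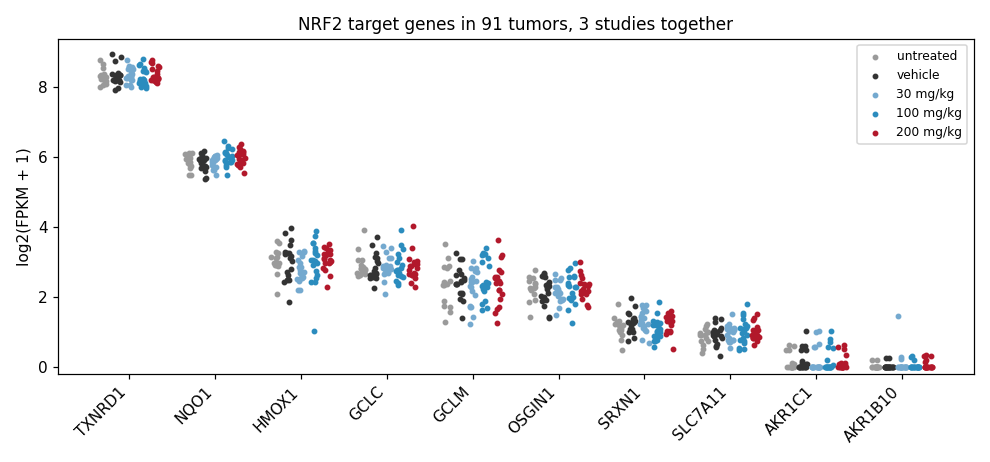
Level of each NRF2 target gene (log2 of FPKM + 1, vertical axis) in the 91 tumors, 1 point per tumor, colored by treatment with the 3 studies together. TXNRD1 and NQO1 stand above all others, AKR1C1 and AKR1B10 sit at or near 0, and within each gene the colors overlap.

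AKR1C1 and AKR1B10, aldo-keto reductases that are among the most inducible NRF2 targets in epithelial cells, were at the floor of the measurement. AKR1C1 was listed at 0 in 55 of 91 tumors with a highest value of 1.039, and AKR1B10 at 0 in 76 with a highest value of 1.731. That tumor belonged to cage group 8 (30 mg/kg) at 3-6 h. AKR1C1 had a mean of 0.387 FPKM at 100 mg/kg and 1 h against 0.0362 with vehicle, with 3 of 5 tumors above all vehicle tumors. At 24 h its mean was 0.126 with vehicle, 0.371 at 30 mg/kg (2 of 4 tumors above all vehicle tumors), 0 at 100 mg/kg and 0.066 at 200 mg/kg, so the doses lay on both sides of vehicle. Both failed the filter on low values (FPKM 1 or more in 4 or more tumors) and were not tested. AKR1C1 is nearly identical to AKR1C2 and similar to AKR1C3, so reads can be split between them and these values are uncertain. AKR1C2 was at 0 in 83 tumors, and AKR1C3 had a median of 0.8782.

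The remaining 8 members were tested with limma in 1 model over 91 tumors, with Benjamini-Hochberg adjustment over the 13036 genes of a comparison. Differences are of log2(FPKM + 1), so that a low gene such as SRXN1 or SLC7A11 changes by more in FPKM than they show. Each dose was compared with the vehicle of its study, which the 3 doses share.

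At 1 h no member passed the threshold of 0.05 at 30, 100 or 200 mg/kg, and no member had an unadjusted p under 0.05, against 4.38%, 4.97% and 3.34% of all genes. Over all genes the share called was 0%, 0.00767% and 0%, and the dose trend called 0% of genes and no member. The highest estimate was that of SLC7A11 at 100 mg/kg. Its values were 0.514, 0.822, 0.846, 1.06 and 1.09 FPKM with vehicle and 0.879, 0.978, 1.12, 1.56 and 2.44 with 100 mg/kg. The groups overlapped, the difference was 0.33 ± 0.18 (SE, 95% interval -0.02 to 0.68) and the adjusted p 0.953. At 200 mg/kg SLC7A11 differed by 0.03 (-0.34 to 0.40). NQO1 differed by 0.14 (-0.10 to 0.38) and HMOX1 by 0.09 (-0.46 to 0.64) at 200 mg/kg. The median difference of the 8 members at 200 mg/kg was 0.04, against -0.002 over all genes tested.

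At 3-6 h limma called no member at any dose, in the dose trend or in any of the 6 cage groups set against both vehicle cages. The share of all genes called was 0.0153%, 0.43% and 0.069% in order of dose, and 0.215% for the trend. By cage group it was 0.00767% and 0.276% for cage groups 4 and 5 (200 mg/kg), 0% and 1.33% for 6 and 7 (100 mg/kg), and 0% and 0.0307% for 8 and 9 (30 mg/kg). No member had an unadjusted p under 0.05 in the comparisons of doses or the trend, against 7.03%, 10.3% and 7.23% of all genes by dose and 7.83% in the trend. In the cage groups 4 did, NQO1 in cage groups 5 and 6 (higher) and TXNRD1 (lower) and OSGIN1 (higher) in cage group 7. Of all genes 9.63%, 5.01% and 13.5% did so in cage groups 5, 6 and 7. In cage groups 4, 8 and 9, where no member did, the shares were 4.83%, 4.93% and 9.26%. NQO1 had a lowest, median and highest value of 51.6, 61.3 and 71.0 FPKM in 10 vehicle tumors and of 45.3, 65.5 and 76.6 in 10 tumors at 200 mg/kg, which overlap, with a difference of 0.04 (95% interval -0.12 to 0.21). Its cage groups at 200 mg/kg lay apart, with 56.2 ± 9.2 FPKM (SD, n = 5) in cage group 4 and 70.6 ± 5.7 (SD, n = 5) in cage group 5. Against vehicle these differed by -0.12 (adjusted p = 0.995) and 0.21 (adjusted p = 0.475). The relative depth of these libraries did not overlap either, at 1.043 to 1.627 in cage group 4 and 0.6453 to 0.9417 in cage group 5. The labels do not say which of these cage groups was taken at 3 h and which at 6 h. The part of depth or of sampling time in the difference was not tested.

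HMOX1, often read as a marker of oxidative stress, varied most at 3-6 h between its 2 vehicle cages. Vehicle cage group 2 had 2.63, 4.39, 4.64, 4.71 and 5.98 FPKM and vehicle cage group 3 had 5.57, 8.47, 10.3, 11.4 and 13.2, so 4 of 5 tumors of cage group 3 lay above all of cage group 2. The difference between these vehicle cages was 0.96 ± 0.26 (SE, adjusted p = 0.0772, with 0.33% of all genes called), a comparison chosen after the values were seen. Against both vehicle cages HMOX1 differed by -0.33, 0.27 and 0.12 at 30, 100 and 200 mg/kg (adjusted p of 0.748, 0.656 and 0.939). Against cage group 2 alone these estimates were 0.15, 0.75 and 0.61, and against cage group 3 alone -0.81, -0.21 and -0.36. None of these passed, with the lowest adjusted p of 0.075 at 30 mg/kg against cage group 3. Of 7 macrophage markers, C1QA, AIF1 and CD163 were at 0 in all 10 of these vehicle tumors. CSF1R, PTPRC and MARCO had medians of 0.4196, 0.2322 and 1.219 FPKM in cage group 2 and of 0.4053, 0.1347 and 0.4087 in cage group 3, with no higher median in cage group 3. CD68, a lysosomal protein gene, ran from 43.57 to 163.8 in cage group 2 and from 91.06 to 264.6 in cage group 3, which overlap. All 7 are human genes and the host cells are mouse, so these values do not show whether host macrophages differed between the cages. In tumors read as a whole, fewer cells of a type and less RNA per cell cannot be told apart.

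**Figure D2:**
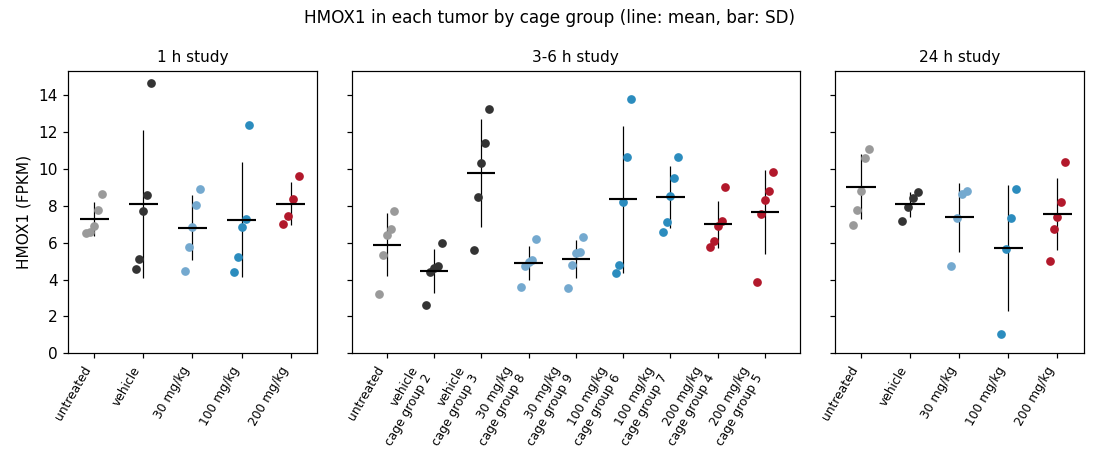
HMOX1 (FPKM, vertical axis) in each tumor by study, treatment and, at 3-6 h, cage group. Points are tumors, horizontal lines means and vertical bars SD, and the vehicle cage groups at 3-6 h hold the lowest and the highest mean of all groups, 4.471 and 9.795.

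At 24 h NQO1 rose at 100 and 200 mg/kg. Its values were 40.8, 47.9, 52.9 and 59.2 FPKM with vehicle, 52.8, 59.4, 62.3 and 62.7 with 30 mg/kg, 63.3, 63.3, 69.0 and 86.5 with 100 mg/kg, and 54.0, 67.3, 67.4, 69.9 and 81.4 with 200 mg/kg. All 4 tumors at 100 mg/kg lay above all vehicle tumors, as did 4 of 5 at 200 mg/kg and 3 of 4 at 30 mg/kg. The means were 50.2 ± 7.8 (SD, n = 4), 59.3 ± 4.6 (SD, n = 4), 70.5 ± 11 (SD, n = 4) and 68.0 ± 9.8 (SD, n = 5). The difference from vehicle was 0.48 ± 0.13 (SE, adjusted p = 0.0382) at 100 mg/kg and 0.43 ± 0.12 (SE, adjusted p = 0.0191) at 200 mg/kg, which is 1.397-fold and 1.348-fold. At 30 mg/kg it was 0.24 ± 0.13 (SE, adjusted p = 0.527), which did not pass. The trend with dose was 0.20 per 100 mg/kg (adjusted p = 0.0213). In these comparisons 1.12%, 7.41%, 0.0384% and 5.61% of all genes were called at 100, 200 and 30 mg/kg and in the trend, and NQO1 was the 1 member of 8 called, in all but the lowest dose. The relative depth was 0.9708 to 1.015 in the vehicle libraries and lower in all 4 at 100 mg/kg (0.755 to 0.9497), and it overlapped with vehicle at 200 mg/kg (0.764 to 1.841). Its part in these differences was not tested.

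**Figure D3:**
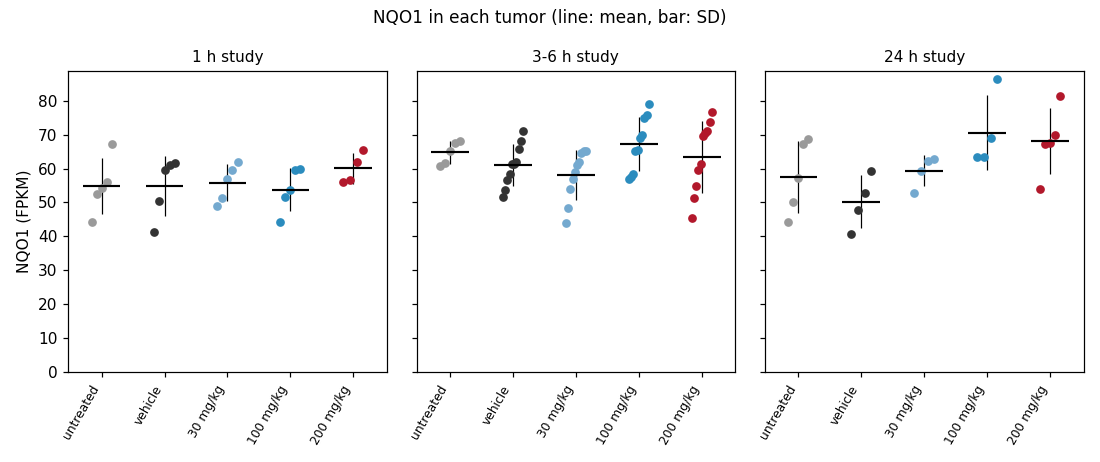
NQO1 (FPKM, vertical axis from 0) in each of the 91 tumors by study and treatment, with the mean as a horizontal line and the SD as a bar. The vehicle tumors at 24 h have the lowest mean of any treatment and study (50.2), and the untreated tumors of that study spread over both them and the treated ones.

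The call of NQO1 depended on the control and on single tumors. The 5 untreated tumors of the 24 h study had 44.2, 50.1, 57.1, 67.4 and 68.6 FPKM, and so overlapped with vehicle and with every dose. With them as the control the differences were 0.30 at 100 mg/kg (adjusted p = 0.204) and 0.25 at 200 mg/kg (adjusted p = 0.181), which did not pass. With all 94 libraries they were 0.44 (adjusted p = 0.811) and 0.43 (adjusted p = 1). With only the groups compared in the model the adjusted p was 0.185 and 0.0888. Both calls were kept with array weights on all 94 libraries. At 100 mg/kg the call was lost without vehicle replicate 1, 3 or 4 (adjusted p of 0.063, 0.097 and 0.151) and without treated replicate 2 or 3 (0.193 and 0.0652). At 200 mg/kg it was lost without vehicle replicate 3 or 4 (0.0623 and 0.1001), and in the trend without vehicle replicate 4 (0.0735) or 200 mg/kg replicate 1, 2 or 3 (0.0561, 0.0624 and 0.0547). The direction was kept in each of these fits.

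The rise of NQO1 at 24 h was not shown to differ from the earlier times. The effect of 200 mg/kg at 24 h minus that at 1 h was 0.29 ± 0.17 (SE, adjusted p = 0.475), and minus that at 3-6 h 0.39 ± 0.15 (SE, adjusted p = 0.147). No other member passed in these tests either, in which 0.583% and 1.72% of all genes were called. Markers of the tumor cells were also higher than with vehicle at 24 h, at 30 mg/kg too, where NQO1 was not called. The sum of 7 mesothelial markers was 1856 to 1906 FPKM in vehicle tumors, 2166 to 2356 at 30 mg/kg, 1986 to 2437 at 100 mg/kg and 1995 to 2520 at 200 mg/kg, without overlap between vehicle and any dose, and 1692 to 2210 in untreated tumors. Of them MSLN, CALB2 and KRT19 rose at 200 mg/kg, by 0.40, 0.39 and 0.32 (adjusted p of 0.0414, 0.0198 and 0.0314), and lost that call in 7, 4 and 6 of 9 fits without 1 tumor (adjusted p up to 0.1505, 0.0851 and 0.1668). The other markers of the sum passed in no comparison of a dose with vehicle. The part of these markers in the rise of NQO1 was not tested.

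The other members at 24 h gave no call. GCLM, of glutathione synthesis, had 3.297, 4.201, 4.363 and 4.434 FPKM with vehicle, 2.66, 6.36, 8.29 and 8.58 with 100 mg/kg and 1.398, 1.91, 2.86, 3.57 and 7.75 with 200 mg/kg. Of its tumors 3 of 4 lay above all vehicle tumors at the middle dose and 3 of 5 below all of them at the top dose, with differences of 0.47 (95% interval -0.30 to 1.24) and -0.32 (-1.05 to 0.41). GCLC, its partner, differed by 0.01 (-0.51 to 0.53) and 0.09 (-0.41 to 0.58). SLC7A11, which imports the cystine for the same pathway, differed by 0.02 (-0.38 to 0.41) and 0.04 (-0.33 to 0.41).

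In the thioredoxin branch TXNRD1 had 293, 294, 301 and 326 FPKM with vehicle and 276, 284, 295, 332 and 424 with 200 mg/kg, which overlap. Its difference was 0.07 (95% interval -0.19 to 0.33), and across the 9 comparisons of a dose with vehicle its estimates ran from -0.08 to 0.17. SRXN1 had 1.43, 1.58, 1.60 and 2.93 FPKM with vehicle and 0.679, 1.00, 1.31 and 1.41 with 100 mg/kg. All 4 of these treated tumors lay below vehicle, and the difference was -0.44 ± 0.22 (SE, unadjusted p = 0.0466, adjusted p = 0.344). Vehicle replicate 1, with the highest value, set part of it, and without that tumor the difference was -0.29 (adjusted p = 0.659). Without treated replicate 2 the difference was -0.34 (adjusted p = 0.585). OSGIN1 differed by -0.28 at 100 mg/kg and -0.11 at 200 mg/kg (adjusted p of 0.663 and 0.849).

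HMOX1 at 24 h had 7.17, 7.91, 8.44 and 8.76 FPKM with vehicle, 1.03, 5.63, 7.32 and 8.93 with 100 mg/kg and 5.02, 6.75, 7.39, 8.18 and 10.4 with 200 mg/kg. The groups overlapped, with replicate 3 at 100 mg/kg far below the rest. The difference was -0.65 ± 0.29 (SE, unadjusted p = 0.029, adjusted p = 0.28) at 100 mg/kg and -0.11 (95% interval -0.66 to 0.44) at 200 mg/kg. Without replicate 3 the difference at 100 mg/kg was -0.15 (adjusted p = 0.904), so that it rested on this tumor.

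Over the 3 studies 72 comparisons of a member with vehicle were tested. limma called 2 (2.78%), both NQO1, against 1.01% of all such tests over the 13036 genes. An unadjusted p under 0.05 was found in 4 (5.56%), against 9.25% over all genes. Besides NQO1 these were the lower estimates of HMOX1 and SRXN1 at 100 mg/kg and 24 h. In limma fits without 1 tumor the unadjusted p of each could exceed 0.05. For HMOX1 it did without treated replicate 3 (0.601) or vehicle replicate 3 or 4 (0.0511 and 0.0569). For SRXN1 it did without vehicle replicate 1 (0.226) or treated replicate 1 or 2 (0.078 and 0.154). The upper end of the 95% interval lay below 2-fold in 71 of 72 on this scale. The exception was GCLM at 100 mg/kg and 24 h, where it reached 2.37-fold. For SRXN1 and SLC7A11, at an FPKM near 1, a bound on this scale allows a larger change of the FPKM itself. The median over the 8 members at 24 h was 0.01 at 100 mg/kg and -0.03 at 200 mg/kg, against 0.03 and 0.04 over all genes.

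**Figure D4:**
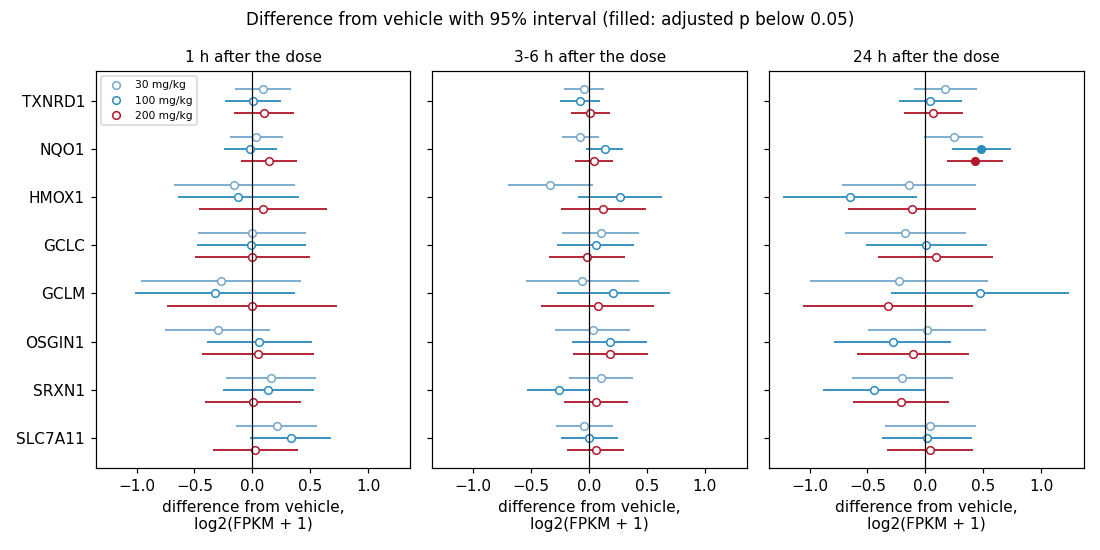
Difference from vehicle on the log2(FPKM + 1) scale (horizontal axis) with its 95% interval for the 8 tested members, 3 doses and 3 studies. Filled points passed an adjusted p of 0.05, which were NQO1 at 100 and 200 mg/kg and 24 h, and intervals are widest for GCLM.

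Vehicle was compared with no treatment to see whether the dosing itself moved these genes. Against untreated tumors, averaged over the 3 studies, limma called no member and 0% of all genes (no member and 625 genes at an unadjusted p under 0.05). NQO1 differed by -0.09 (95% interval -0.22 to 0.04), HMOX1 by 0.02 (-0.27 to 0.32) and SRXN1 by 0.17 (-0.06 to 0.39).

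Precision differed between members. The SD within groups on the log2(FPKM + 1) scale was 0.18 for NQO1 and 0.20 for TXNRD1, below the median of 0.29 over tested genes, and 0.42 for HMOX1 and 0.56 for GCLM, the latter at percentile 92.5. Over 28 pairs of members the median correlation of residuals from the group means across 91 tumors was 0.03. For NQO1 and TXNRD1, the highest of them, Pearson's r was 0.339 (permutation p adjusted over 28 pairs of 0.0311) and Spearman's rho 0.354 (0.0213), and no other pair passed by both. Without the 2 tumors farthest from the median of NQO1, r was 0.276, and within the 1 h, 3-6 h and 24 h studies it was 0.581, 0.321 and 0.255. Tumors share their library and its depth in both values. The genes most like the mean of the 8 members in these residuals were DCBLD2 (r = 0.596), KTN1 (0.534), PDIA6 (0.523), MEA1 (0.521) and PFDN2 (0.516), over 91 tumors and as a description.

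The regulators of NRF2 were expressed. NFE2L2 itself had a median of 52.63 FPKM, KEAP1 of 35.17 and BACH1 of 17.13, with none at 0 in any of the 91 tumors. At 24 h the mean of NFE2L2 was 53.6 ± 3.8 in vehicle tumors (SD, n = 4) and 52.3 ± 3.3 at the top dose (SD, n = 5), a difference of -0.03 (adjusted p = 0.901). KEAP1 differed by 0.16 (adjusted p = 0.328), and BACH1 had 24.3 ± 1.1 with vehicle and 19.4 ± 4.3 with 200 mg/kg, a difference of -0.34 (adjusted p = 0.439). Of 10 regulators listed, which besides these hold CUL3, RBX1, the small MAF genes, NFE2L1 and SQSTM1, limma called none in the 9 comparisons of a dose with vehicle. Of these 90 tests 7 (7.78%) had an unadjusted p under 0.05. Over all genes 9.25% of such tests did so, and 1.01% of all such tests were called. NFE2L1 passed in cage group 7 (100 mg/kg), by 0.20 (adjusted p = 0.0396). These are RNA levels, and NRF2 is controlled mainly through the stability of its protein.

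Further NRF2 pathway genes were read from lists of 40 other genes in 5 roles, shown in the plot of the wider pathway. At 200 mg/kg and 24 h, 4 of the 36 tested rose and 1 fell, against 7.41% of all genes called in either direction. Those that rose include TXNIP, an inhibitor of thioredoxin, so the count does not stand for 1 direction of the pathway. Of 10 tested genes for detoxification, EPHX1, TRIM16 and ALDH3A1 rose. EPHX1, microsomal epoxide hydrolase, had 18.9, 22.4, 22.5 and 23.1 FPKM with vehicle and 23.7, 44.1, 44.8, 45.1 and 48.9 with 200 mg/kg, above vehicle in all 5 tumors. Its difference was 0.86 (adjusted p = 0.000673). Untreated tumors at 24 h ran from 16.06 to 25.08 FPKM for EPHX1, and so overlapped with the lowest of the treated tumors. TRIM16 and ALDH3A1, an aldehyde dehydrogenase, differed by 0.73 (adjusted p = 0.00372) and 0.69 (adjusted p = 0.0304), again with all 5 treated tumors above vehicle. Their vehicle means at 24 h, 24.56 and 1.388 FPKM, were the lowest of any treatment and study. Untreated tumors at 24 h ran from 16.73 to 38.61 (TRIM16) and from 1.321 to 2.859 (ALDH3A1). These ranges overlap with 32.89 to 46.18 and 2.001 to 3.993 at 200 mg/kg. ALDH3A1 lost its call without vehicle replicate 1, 2 or 3 or treated replicate 1 or 4, with adjusted p up to 0.092.

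Of 5 thioredoxin genes TXNIP rose and PRDX6 fell. TXNIP, which binds and inhibits thioredoxin and follows glucose supply, had 27.8, 30.0, 32.0 and 45.1 FPKM with vehicle and 62.7, 74.8, 95.5, 99.0 and 119.7 with 200 mg/kg, without overlap. The difference was 1.38 (adjusted p = 0.000927), and it was 1.10 at 100 mg/kg (adjusted p = 0.0469), which was lost without vehicle replicate 1, 2 or 3 or treated replicate 1, 2 or 3 (up to 0.257). PRDX6, a peroxiredoxin, fell by 0.33 (adjusted p = 0.0168), from 148.6 ± 12.8 FPKM in vehicle tumors to 117.6 ± 9.9 FPKM, and lost its call without vehicle replicate 1 or 3 or treated replicate 1 (up to 0.0824). In the glutathione list (9 tested), the iron and heme list (8 tested) and the 4 tested NADPH genes reported here, limma called none at this dose (unadjusted p under 0.05 for 1, 2 and 1 of them, against 21.9% of all genes). FTL and FTH1, the ferritin subunits that respond with HMOX1, differed by 0.13 and -0.20 (adjusted p of 0.692 and 0.779). AKR1C3, a relative of AKR1C1, had the highest estimate among the detoxification genes at 1.01, with 0.461 ± 0.58 FPKM with vehicle and 2.09 ± 1.6 with 200 mg/kg, and did not pass (adjusted p = 0.0591).

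**Figure D5:**
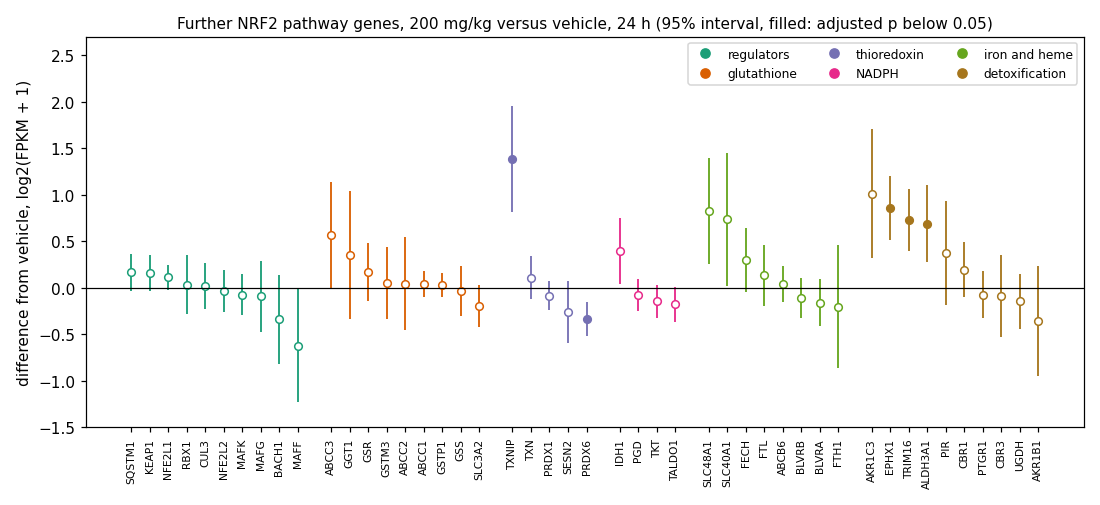
Difference of 200 mg/kg from vehicle at 24 h on the log2(FPKM + 1) scale (vertical axis) with its 95% interval for the tested genes of the wider pathway and the regulators, grouped by role. Filled points passed, 4 above 0 (TXNIP, EPHX1, TRIM16, ALDH3A1) and PRDX6 below.

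The dose trend at 24 h called TXNIP, EPHX1 and TRIM16 upward (0.56, 0.38 and 0.28 per 100 mg/kg) and PRDX6 downward (-0.15). Leaving out 1 tumor lost the trend of TRIM16 in 3 of 17 fits (adjusted p up to 0.0684) and of PRDX6 in 4 (up to 0.1272). At 1 h and 3-6 h none of the 36 tested genes passed at any dose. EPHX1 and TXNIP had a larger effect of 200 mg/kg at 24 h than at 1 h, by 0.95 and 1.69 (adjusted p of 0.0382 and 0.0223). EPHX1 and PRDX6 differed likewise between 24 h and 3-6 h, by 0.87 and -0.42 (adjusted p of 0.0145 and 0.0338). Of the stress lists with other regulators, 9 ATF4 targets and 4 tested heat shock genes, none passed at any dose or time. An unadjusted p under 0.05 was found in 7 of 81 ATF4 tests (8.64%) and 2 of 36 heat shock tests (5.56%), shares near or below the 9.25% of all genes.

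Targets of YAP1 and TEAD were read in the same tumors as a check of the treatment. CCN1 and CCN2 fell at 24 h and 200 mg/kg by 1.26 (adjusted p = 1.228e-05) and 1.44 (adjusted p = 2.11e-06), with no overlap of the 5 treated and 4 vehicle tumors. AXL fell as well, by 0.53 (adjusted p = 0.00186), and ANKRD1 and AMOTL2 in the dose trend at 24 h, by 0.37 and 0.22 per 100 mg/kg (adjusted p of 0.0292 and 0.0194). At 100 mg/kg and 24 h, where NQO1 was called, limma called none of these 5 genes (4 at an unadjusted p under 0.05). The lowest adjusted p there was that of CCN2, at the threshold (0.05), with a difference of -0.79. At 30 mg/kg none was called at any time, and at 1 h none at any dose. At 3-6 h CCN1, CCN2 and AMOTL2 fell by 0.78, 0.63 and 0.62 (100 mg/kg) and by 0.72, 0.63 and 0.53 (200 mg/kg), at a time when none of the 8 members passed. The call of CCN2 at 200 mg/kg and 3-6 h was lost in 12 of 20 fits without 1 tumor (adjusted p up to 0.1246). The calls of CCN2 at both doses were also lost with vehicle cage group 2 alone as the control (adjusted p of 0.0891 and 0.166) and with cage group 3 alone (0.0735 and 0.102). With cage group 2 alone CCN1 lost both calls (0.0508 and 0.166), and with cage group 3 alone AMOTL2 lost that at 200 mg/kg (0.114). The estimates kept their sign.

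The promoters of the members were searched for the core of the antioxidant response element, TGACNNNGC on either strand, because NRF2 acts through it. RefSeq (GRCh38.p14) gave windows of 300 bases, from 250 before the start of the gene, for 7 of 10 members. Matches were found in GCLM and TXNRD1, while 13.3% of all 35116 such windows hold one. They are shown on the strand of the gene, with the match in capitals, and TXNRD1 has 2 windows.

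GCLM, chr1:93909446-93909474, minus strand: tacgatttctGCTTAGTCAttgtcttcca

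TXNRD1, chr12:104215670-104215698, plus strand: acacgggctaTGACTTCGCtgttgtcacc

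TXNRD1, second window, chr12:104286920-104286948, plus strand: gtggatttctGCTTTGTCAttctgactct

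The window of NQO1, the member that rose, lies at chr16:69726511-69726810 and holds no match. It lies inside the locus given above, as does that of OSGIN1 (chr16:83952990-83953289). The sequence before the outer start of these loci was therefore not searched, and an element there would be missed. In the first window of TXNRD1 a further match lies at the start of the gene. The matches of GCLM and of the first TXNRD1 line began 34 and 99 bases before the start. None of the matches overlaps the AP-1 motif TGACTCA, and neither GCLM nor TXNRD1 passed at any dose or time.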

How the data were processed

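The table deposited by the authors holds FPKM per gene and library. STAR and the build GRCh38 are named in the submitters' processing notes, and the quantification tool, the annotation and the treatment of mouse reads are not given in the sources used here. KAPA RNA HyperPrep libraries were enriched with HyperCap probes before paired-end sequencing. Of 20555 entries, 316 repeated a gene ID and were dropped, and 32 blank cells, none of a member, were read as 0. Groups came from the labels.

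Differential expression was tested with limma 3.58.1 (R 4.3.3; lmFit, then eBayes with trend and robust) on log2(FPKM + 1), with 1 coefficient for each of 19 groups, for the 13036 genes that reached FPKM 1 in 4 or more of 91 libraries. Libraries with fewer than 10000 genes at an FPKM of 1 were left out. At 3-6 h both cage groups of a dose were averaged, as were those of vehicle. P-values were adjusted by Benjamini-Hochberg within a comparison and called below 0.05. Only the spread between tumors within a cage group enters the p-values, and the absolute depth behind a value is unknown. The spread between the cage groups of a treatment at 3-6 h does not enter them, so intervals there can be too narrow. A relative depth was taken from the values of rarely detected genes. Correlations used two-sided permutation tests with 100000 resamples.

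The members and lists were chosen with earlier results of these data known, and 1 further pathway gene is not reported here. Named were all members, the genes of the other lists past the threshold in a comparison of a dose with vehicle or a dose trend, NFE2L2, KEAP1, BACH1, CCN1, CCN2, AKR1C2 and AKR1C3, and the 5 genes most like the members. Others (MAF genes, FTL and FTH1) were named after their values were seen. Alternatives were another pseudocount, filters, scalings, controls and sets of libraries, and leaving out each tumor.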

Additional observations from a re-analysis of the deposited data

Results flagged for a closer look

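Among 152 sets of 1 member in 1 group of 4 or 5 tumors, 6 held a tumor far from the others by Dixon's test, where chance gives about 1 in 20. GCLC was high in vehicle replicate 3 at 1 h (12.21 FPKM, next 5.032) and in replicate 2 of cage group 5 (200 mg/kg, 3-6 h) with 15.27 (next 6.729). In the same cage group 5 tumor SRXN1 was low, at 0.4245 (next 1.65). OSGIN1 was high in replicate 5 of cage group 6 (100 mg/kg, 3-6 h) at 6.022 (next 2.909), and SLC7A11 in replicate 2 of 200 mg/kg at 24 h at 1.838 (next 1.057). SRXN1 was high in vehicle replicate 1 at 24 h at 2.933 (next 1.602), the highest value of the control for the lower SRXN1 estimates at 24 h. Without it the difference at 100 mg/kg was -0.29 in place of -0.44. These 4 members passed in no comparison.

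For 3 further pathway genes limma found the effect of the top dose in the 24 h study to differ from that in an earlier study. Time and study cannot be told apart in these differences. The effect was larger at 24 h than at 1 h for TXNIP (by 1.693) and EPHX1 (by 0.9502). Between 24 h and 3-6 h it differed by 0.8712 for EPHX1 and by -0.4155 for PRDX6.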

How the results depend on the processing

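The number of members called was 1 at 100 mg/kg, at 200 mg/kg and in the dose trend at 24 h, and fell to 0 in all 3 with all 94 libraries, with only the groups compared in the model, and with untreated tumors as the control. Leaving out 1 tumor gave 0 to 1 in each. The other 18 counts were 0 under every alternative run, and 575 of 595 counts under alternatives equalled the main one. Of the 70 estimates not called in comparisons of a dose with vehicle, none passed under any alternative, and up to 15 changed sign (with untreated controls). Of 33 called differences of named genes, 32 lost the call with all 94 libraries, 18 with only the groups compared and 8 with untreated controls, and of the 9 at 3-6 h 5 lost it with vehicle cage group 2 alone and 4 with cage group 3 alone. The cause of these losses was not tested. With array weights on all 94 libraries, all 33 kept the call. None changed direction. Counts over all genes moved more. With all 94 libraries, with array weights on them and with only the groups compared, the genes called were 0, 1975 and 324 at 200 mg/kg and 24 h (966 in the reported fit), 2, 187 and 9 at 100 mg/kg and 24 h (146), 3, 1635 and 322 in the trend at 24 h (731), and 2960, 45 and 33 at 30 mg/kg and 24 h (5). With untreated controls they were 260 at 100 mg/kg and 46 at 30 mg/kg and 24 h. For the difference of the 200 mg/kg effect between 24 h and 1 h the first 3 settings gave 0, 524 and 33 (76), and between 24 h and 3-6 h 0, 897 and 130 (224), and at 100 mg/kg and 3-6 h 1, 60 and 21 (56). Cage group 7 gave 0, 62 and 14 (173). With all 94 libraries the median of all genes at 30 mg/kg and 24 h moved to -0.646, in a fit that holds the library with 702 genes.

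No paired analysis was possible because the labels carry no replicate numbers that pair tumors of different groups.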
